A study of Mus musculus with 9 samples.

Results

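Monocyte lineage genes were followed in sorted mouse bone marrow progenitors. The set holds 9 genes, F13a1, Ccr2, Cx3cr1, Ly86, Fn1, Lgals3, Mpeg1, Ms4a6c and Fcgr1, of 18193 genes with a probe set of their own, and it was taken by gene symbol, not by level. A probe set is a group of short probes read as 1 value, and the 9 genes had 16 of them. F13a1, Ly86, Lgals3 and Mpeg1 had 1 each, Cx3cr1, Fn1, Ms4a6c and Fcgr1 had 2 each, and Ccr2 had 4. All 16 were tested, with no filter on low values.

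The cells came from 3 groups with 3 arrays each. GMP NcstnKO were granulocyte-macrophage progenitors, sorted as lineage negative, cKit+, Sca1-, CD34+ and FcgammaRII/III+, from Ncstn flox/flox Mx1-cre+ mice. GMP WT passed the same gate, and their genotype was Ncstn flox/flox. LSK WT were the earlier, stem cell-rich population, lineage negative, cKit+ and Sca1+, of the same genotype. Both WT groups therefore carried the floxed alleles. The littermates had polyIC, an inducer of interferon, in 3 injections of 20 mcg per g that started at 14 days of age, and all were analysed at 6 weeks of age, 4 weeks after injection. Mx1-cre is switched on by interferon and is not limited to the blood, it is present only in the NcstnKO group, and its presence and the loss of nicastrin cannot be told apart here. Ncstn encodes nicastrin, a subunit of gamma-secretase, the protease that cleaves Notch receptors. The labels do not say which mouse each array came from, so p-values measure the spread between these arrays.

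The groups were checked before the genes were read. Ncstn itself was at 7.76 to 7.79 log2 intensity in GMP NcstnKO arrays, against 9.25 to 9.31 in GMP WT arrays, and at 8.99 to 9.13 in LSK WT arrays. All 5 measured GMP identity genes (Mpo, Elane, Prtn3, Ctsg and Gfi1) were higher in GMP WT than in LSK WT (limma, adjusted p under 0.05). All 4 measured LSK genes were lower, where 6.04% of all probe sets were higher and 28.8% lower. In 4 GMP arrays, replicates 2 and 3 of both groups, Xist and the Y-linked Eif2s3y went against the labelled sex. By these transcripts all 3 GMP NcstnKO arrays were female, while 1 array of each other group was. Median intensity was 65.4 to 67.9 in GMP NcstnKO, 67.3 to 68.6 in GMP WT and 98.3 to 103 in LSK WT, so the deposited arrays do not share a scale. Background was set at the 95th percentile of the 27 bacterial control probe sets of each array, 4.30 to 4.57 log2. The log2 ratio of 3′ to 5′ Actb control probe sets, a sign of RNA quality, averaged 0.90 ± 0.14 in GMP NcstnKO, 0.58 ± 0.11 in GMP WT and 0.75 ± 0.11 in LSK WT (SD, n = 3 each). Between the GMP groups the exact permutation test gave p = 0.1, the smallest that 3 against 3 allows.

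Monocytes arise in the marrow from progenitors within the GMP gate. The genes followed here are known from that lineage at different steps. Ccr2 is the chemokine receptor through which inflammatory monocytes leave the marrow, and Cx3cr1, the receptor of fractalkine, marks patrolling monocytes and many tissue macrophages. Ly86, also called MD-1, pairs with Cd180 in a receptor related to Toll-like receptors, and Fcgr1 is the high-affinity receptor for IgG. F13a1 encodes the A subunit of coagulation factor XIII, a transglutaminase carried by monocytes and platelets. Fn1 is fibronectin, a matrix protein that integrins bind, and Lgals3 is galectin-3, a galactoside-binding lectin of macrophages. Mpeg1 encodes perforin-2, a pore-forming protein of phagocytes, and Ms4a6c is a membrane protein of the 4-span MS4A family.

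In GMP WT against LSK WT, 5 of the 9 genes rose on at least 1 probe set and 2 fell. Ccr2, F13a1, Ly86 and Ms4a6c were about 2-fold higher in GMP WT on their brightest probe sets. On the deposited scale Cx3cr1 was at least 1.79-fold higher on the dimmer of its 2, where 2 of 3 LSK WT arrays were at or below background. Fn1 was 3.52-fold lower on its brightest probe set, and Fcgr1 was lower as well. Counted by probe set, 7 of 16 were higher and 4 were lower, where 6.04% of all 45037 probe sets were higher and 28.8% lower. The median log2 fold change of the 16 was 0.77, beside -0.20 over all probe sets. Arrays of whole sorted populations cannot tell fewer cells of a type from less RNA per cell.

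**Figure D1:**
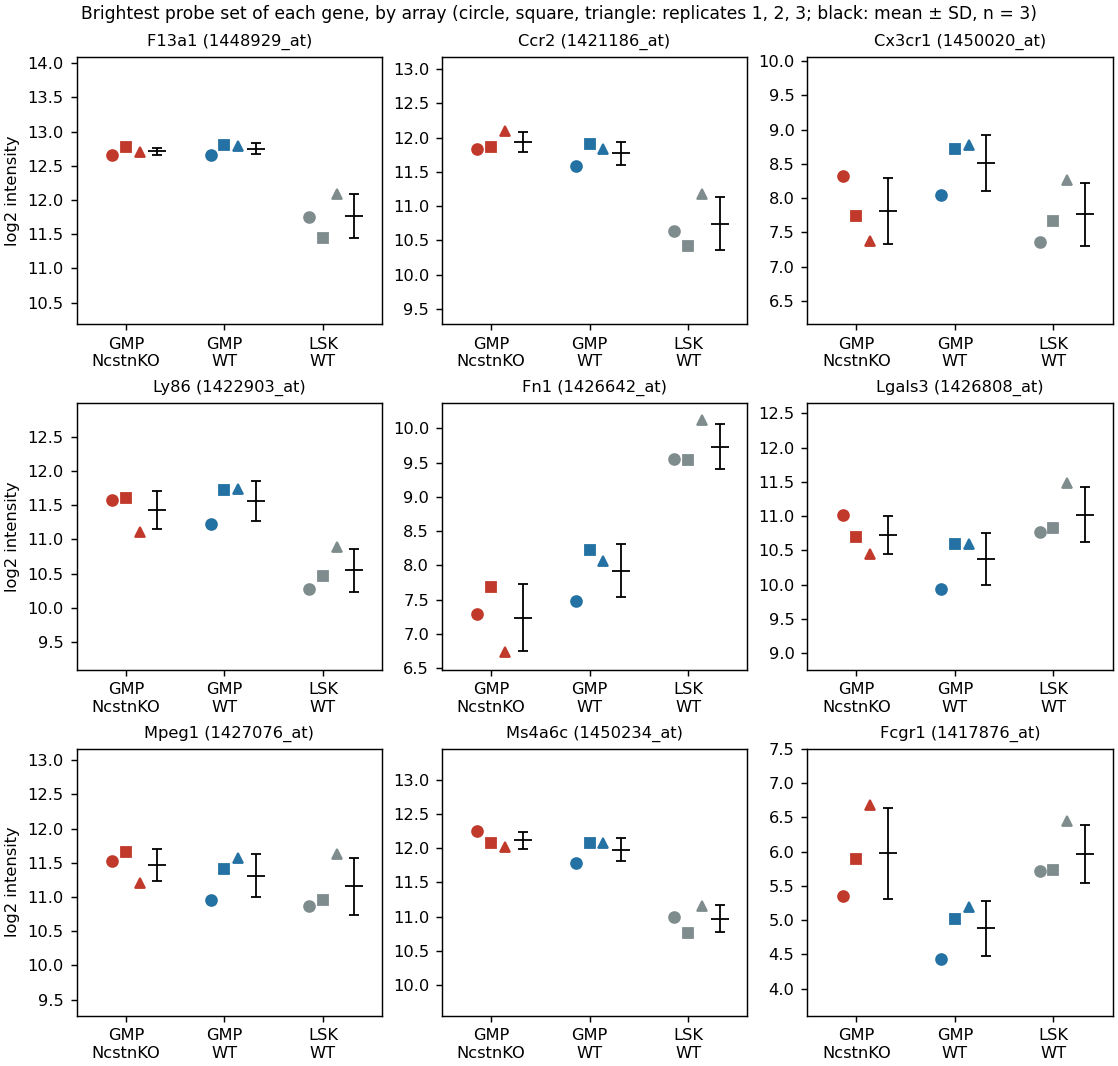
Log2 intensity of the brightest probe set of each of the 9 genes, 1 panel a gene, with points for the 3 arrays of GMP NcstnKO, GMP WT and LSK WT and black bars for the mean ± SD. All panels span the same number of log2 units. F13a1, Ccr2, Ly86 and Ms4a6c lie higher in all 6 GMP arrays than in all 3 LSK WT arrays, and Fn1 lies lower.

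Of the receptors, Ccr2 was followed on 4 probe sets. On the brightest, 1421186_at, it read 11.58, 11.90 and 11.84 log2 intensity in GMP WT arrays, against 10.64, 10.42 and 11.17 in LSK WT arrays. The groups did not overlap, and the log2 fold change was 1.03 (SE 0.19, adjusted p = 0.00406, limma). On 1421187_at it was 1.32 (SE 0.20), from 8.90, 9.59 and 8.93 in GMP WT and 7.95, 7.59 and 7.93 in LSK WT. On 1421188_at the 2 groups overlapped, since LSK WT replicate 3, at 8.23, passed the lowest GMP WT array, at 8.17. The fold change there was 1.19 (SE 0.35, adjusted p = 0.0289). On 1460067_at the difference of 0.80 (SE 0.31) had an adjusted p of 0.0745. All 4 probe sets thus pointed the same way in GMP WT, and 3 of them passed the test.

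Cx3cr1 rose on 1 of its 2 probe sets. On 1450019_at it read 5.09, 5.16 and 5.54 in GMP WT, against 3.97, 4.17 and 4.43 in LSK WT, with 2 of the LSK WT arrays at or below background. The fitted log2 fold change was 1.08 (SE 0.17, adjusted p = 0.00179). With those arrays raised to their background limit Cx3cr1 was at least 1.79-fold higher in GMP WT on the deposited scale. On the brighter 1450020_at, values of 8.04, 8.72 and 8.77 in GMP WT overlapped with 7.36, 7.67 and 8.26 in LSK WT. There the difference was 0.75 (95% interval 0.02 to 1.47, adjusted p = 0.1).

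Ly86 read 11.22, 11.72 and 11.74 in GMP WT, against 10.28, 10.47 and 10.89 in LSK WT. No GMP WT array was as low as any LSK WT array, and the log2 fold change was 1.01 (SE 0.21, adjusted p = 0.00744). Ms4a6c on 1450234_at read 11.78, 12.08 and 12.07 in GMP WT, against 10.99, 10.76 and 11.16 in LSK WT, with a log2 fold change of 1.01 (SE 0.14) and the smallest adjusted p of the 16 probe sets, 0.000945. Its second probe set, 1457725_at, did not follow. It read 7.20, 7.05 and 6.81 in GMP WT, against 7.44, 7.68 and 7.14 in LSK WT, a difference of -0.40 (95% interval -1.07 to 0.27). When the 2 were averaged the Ms4a6c difference was 0.30 (adjusted p = 0.169).

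F13a1, the transglutaminase subunit, read 12.66, 12.81 and 12.79 in GMP WT, against 11.75, 11.45 and 12.09 in LSK WT. All GMP WT arrays lay above all LSK WT arrays, and the log2 fold change was 0.99 (SE 0.15, adjusted p = 0.00169). Platelets carry F13a1 too, so the megakaryocyte and platelet list was read beside it. None of its 7 measured genes was higher in GMP WT and 5 were lower, where 6.04% of all probe sets were higher and 28.8% lower. With quantile normalization 1 was higher and 3 lower, and with centring 0 and 3. Its summed intensity was 3803 to 6126 in GMP WT arrays and 6204 to 9647 in LSK WT arrays. These sums are on the deposited scale, which GMP WT and LSK WT arrays do not share. The part of platelets in the F13a1 difference was not tested.

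Fn1 was the member with the largest difference. On 1426642_at it read 7.48, 8.23 and 8.06 in GMP WT, against 9.55, 9.54 and 10.12 in LSK WT, and the log2 fold change was -1.81 (SE 0.29, adjusted p = 0.00199). On 1437218_at all 3 GMP WT arrays, at 4.16, 3.94 and 3.21, were at or below background, while LSK WT arrays read 5.14, 5.14 and 5.65. Against the background limit of each array, Fn1 on that probe set was at least 1.96-fold lower in GMP WT on the deposited scale. The fitted log2 fold change was -1.53 (adjusted p = 0.0108). Lgals3, the galectin, read 9.93, 10.60 and 10.59 in GMP WT, against 10.77, 10.82 and 11.48 in LSK WT. The groups did not overlap, but the difference of -0.65 (SE 0.25) had an adjusted p of 0.081, and of 0.0408 with the replicate number as a block. Mpeg1, the pore-forming protein, read 10.96, 11.41 and 11.57 in GMP WT and 10.87, 10.96 and 11.63 in LSK WT, an overlap with a difference of 0.16 (95% interval -0.38 to 0.70).

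Fcgr1 was dim. On 1417876_at it read 4.43, 5.01 and 5.19 in GMP WT, against 5.71, 5.73 and 6.45 in LSK WT, with a log2 fold change of -1.09 (SE 0.36, adjusted p = 0.0444). That call was lost without any 1 of the 6 arrays compared, at adjusted p of 0.0574 to 0.137. On 1436625_at the 3 GMP WT arrays, at 4.25, 4.17 and 4.02, were at or below background and LSK WT arrays read 4.77, 4.69 and 4.68. On the deposited scale Fcgr1 was there at least 1.30-fold lower in GMP WT. The fitted log2 fold change was -0.56 (adjusted p = 0.00526), and it ranged from -0.63 to -0.22 over the fits run.

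The scale between arrays moved these counts. With quantile normalization over all 9 arrays, 9 of the 16 probe sets were higher and 2 lower in GMP WT, and the same split of 9 and 2 came from centring each array on its 75th percentile. The 2 that were lower under both were those of Fn1. Over all probe sets the calls were 2722 higher and 12988 lower as deposited, 7912 and 5798 with quantile normalization, and 12180 and 5830 with centring. The median log2 fold change of all probe sets was -0.20, 0.06 and 0.15 in that order. Fcgr1 lost its call under both, with -0.63 and -0.74 on 1417876_at. Ccr2 on 1460067_at gained one, at 1.33 and 1.15, and so did Cx3cr1 on 1450020_at, at 1.28 and 1.09.

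**Figure D2:**
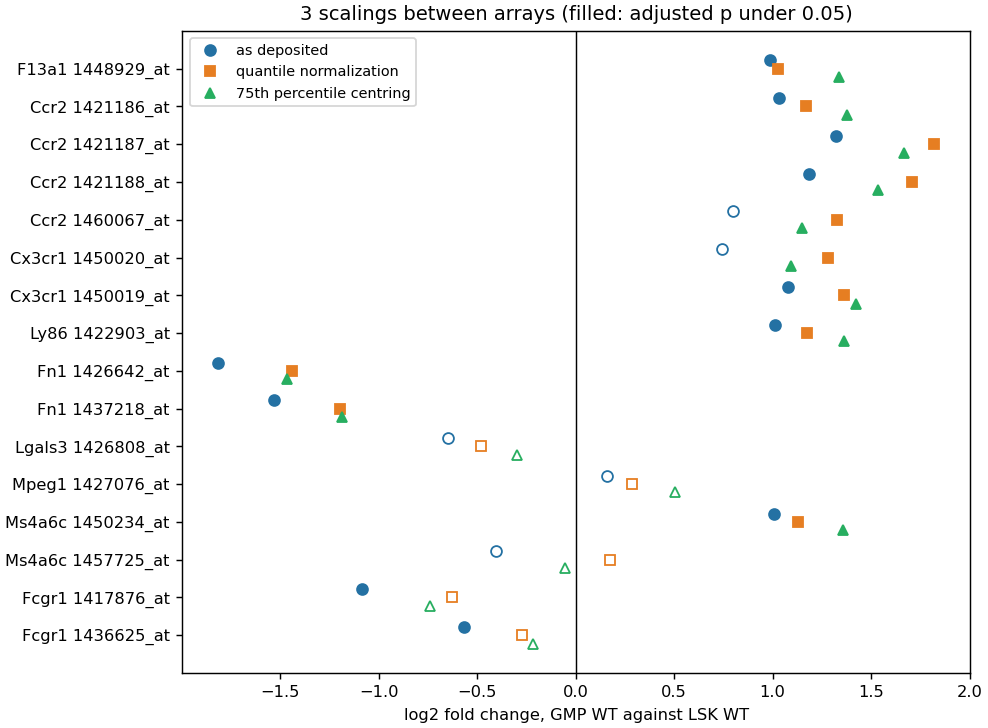
Log2 fold change of GMP WT against LSK WT on the x axis for each of the 16 probe sets, as deposited (circles), after quantile normalization (squares) and after 75th percentile centring (triangles), filled where the adjusted p was under 0.05. F13a1, Ly86 and the 3 brightest Ccr2 probe sets are filled on the right and Fn1 on the left under all 3, while both Fcgr1 probe sets are filled only as deposited.

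The 2-fold differences between GMP and LSK include arrays whose sex transcripts oppose their labels. Without those 4 arrays, 1 array was left in each GMP group, assumed to vary like LSK WT, with 2 residual degrees of freedom. Then 0 of the 16 probe sets were higher and 1 was lower in GMP WT. The log2 fold changes were 0.89 for F13a1, 0.84 for Ccr2 on 1421186_at, 0.68 for Ly86 and 0.81 for Ms4a6c on 1450234_at. Within a group, LSK WT replicate 3 was the highest LSK array on 12 of the 16 probe sets, and GMP WT replicate 1 was the lowest GMP WT array on 13. Over the 22 measured genes of a wider monocyte list the counts were 17 and 14.

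**Figure D3:**
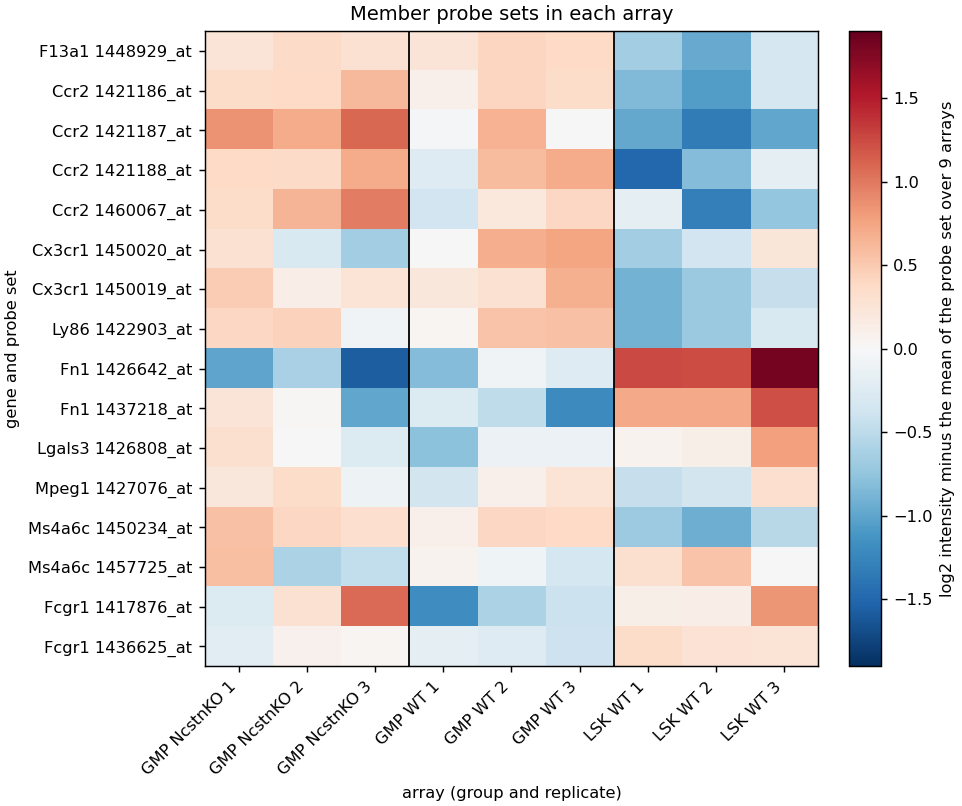
Log2 intensity of each of the 16 probe sets (rows) in each of the 9 arrays (columns, GMP NcstnKO, GMP WT and LSK WT), minus the mean of the probe set over the arrays. Red is above that mean and blue below, and LSK WT replicate 3 is the highest LSK array on 12 rows.

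The promoters of the 4 genes that were higher in GMP WT on their brightest probe set, F13a1, Ccr2, Ly86 and Ms4a6c, are shown because these genes moved together. The sequences are RefSeq's for assembly GRCm38.p6, 250 bases before to 50 after each transcription start, 5′ to 3′ on the strand of the gene. Capitals mark matches to motifs of factors known in myeloid cells: GAGGAA for PU.1, TTGCNNAA for C/EBP, TGTGGT for RUNX and GAAANNGAA for IRF, searched on both strands, with no overlapping matches in the promoters of the set. F13a1 has 2 starts, at chr13:37050195-37050494 and chr13:37049164-37049463 on the minus strand. Ccr2 is at chr9:124101933-124102232, Ly86 at chr13:37345095-37345394 and Ms4a6c at chr19:11469118-11469417, all on the plus strand.
F13a1 start 1: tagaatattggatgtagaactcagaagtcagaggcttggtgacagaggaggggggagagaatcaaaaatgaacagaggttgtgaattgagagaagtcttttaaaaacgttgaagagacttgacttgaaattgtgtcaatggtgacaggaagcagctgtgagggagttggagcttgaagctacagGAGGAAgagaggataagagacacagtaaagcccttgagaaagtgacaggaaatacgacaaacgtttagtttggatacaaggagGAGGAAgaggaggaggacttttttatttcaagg
F13a1 start 2: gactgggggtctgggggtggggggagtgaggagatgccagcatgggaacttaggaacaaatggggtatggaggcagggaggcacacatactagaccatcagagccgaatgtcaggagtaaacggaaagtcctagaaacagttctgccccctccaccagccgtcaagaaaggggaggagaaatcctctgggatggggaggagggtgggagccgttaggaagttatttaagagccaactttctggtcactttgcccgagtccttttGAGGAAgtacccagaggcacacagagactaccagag
Ccr2: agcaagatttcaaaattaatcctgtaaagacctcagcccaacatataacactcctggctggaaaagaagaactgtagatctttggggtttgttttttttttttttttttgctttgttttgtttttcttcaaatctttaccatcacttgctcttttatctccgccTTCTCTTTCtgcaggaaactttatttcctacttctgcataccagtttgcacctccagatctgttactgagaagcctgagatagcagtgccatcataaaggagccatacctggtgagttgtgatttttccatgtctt
Ly86: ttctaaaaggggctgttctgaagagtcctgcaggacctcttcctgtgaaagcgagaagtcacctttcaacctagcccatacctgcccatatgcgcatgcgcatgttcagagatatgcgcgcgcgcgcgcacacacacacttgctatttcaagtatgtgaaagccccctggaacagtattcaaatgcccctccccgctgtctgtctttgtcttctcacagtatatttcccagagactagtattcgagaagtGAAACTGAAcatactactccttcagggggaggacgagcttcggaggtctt
Ms4a6c: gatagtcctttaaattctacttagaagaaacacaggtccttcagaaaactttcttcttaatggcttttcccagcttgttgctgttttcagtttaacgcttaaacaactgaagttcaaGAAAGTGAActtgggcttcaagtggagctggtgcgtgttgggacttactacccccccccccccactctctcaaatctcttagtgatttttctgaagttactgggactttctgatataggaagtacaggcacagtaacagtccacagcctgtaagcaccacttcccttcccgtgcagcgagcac

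RefSeq's table held 9 promoters for 8 of the 9 genes. The PU.1 letters were in 3 of the 9, both starts of F13a1 and the promoter of Fcgr1, and 28.1% of 32544 mouse promoters of that length hold them. The IRF letters were in the promoters of Ccr2, Ly86 and Ms4a6c, 3 of 9, beside 8.53% of all promoters. The RUNX letters were in 1, that of Cx3cr1, beside 16.7%, and the C/EBP letters in 0 of 9, beside 10.8%. A match is a description of the letters and does not show a bound site. F13a1 and Ly86 lie on chromosome 13 on opposite strands, with 0 protein-coding genes between them.

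In GMP NcstnKO against GMP WT, none of the 9 genes passed the test on any probe set. The limma fit called 0 of 16 probe sets in either direction, where 0.604% of all probe sets were higher and 1.15% lower in GMP NcstnKO. At an unadjusted p under 0.05 there were 3 of 16, beside 19.8% of all probe sets. The same 0 came from each of the alternatives run, among them both other scalings, 1 probe set per gene and each single array left out. Fits without 1 GMP array, without LSK WT, with a covariate or with a replicate block called only 0 to 177 of all 45037 probe sets. A 0 from those fits says little about the members. The median log2 fold change of the 16 was 0.14, beside 0.04 over all.

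The 3 probe sets with an unadjusted p under 0.05 belong to Ccr2, Fcgr1 and Fn1. Ccr2 on 1421187_at read 9.78, 9.62 and 10.01 log2 intensity in GMP NcstnKO, against 8.90, 9.59 and 8.93 in GMP WT. The groups did not overlap, though replicate 2 of GMP NcstnKO lay just above replicate 2 of GMP WT, and the log2 fold change was 0.66 (SE 0.20, adjusted p = 0.123). On the brightest Ccr2 probe set, 1421186_at, 11.84, 11.87 and 12.10 in GMP NcstnKO overlapped with 11.58, 11.90 and 11.84 in GMP WT, a difference of 0.17 (95% interval -0.27 to 0.60). On 1421188_at it was 0.13 (SE 0.35) and on 1460067_at 0.58 (SE 0.31, adjusted p = 0.337).

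Fcgr1 had the widest difference of the members between the GMP groups. On 1417876_at it read 5.35, 5.89 and 6.68 in GMP NcstnKO, against 4.43, 5.01 and 5.19 in GMP WT, with no overlap and a log2 fold change of 1.10 (SE 0.36, adjusted p = 0.142). The GMP NcstnKO mean, 5.97 ± 0.67, was at the level of LSK WT, 5.96 ± 0.42 (SD, n = 3 each). On 1436625_at, values of 4.20, 4.50 and 4.46 in GMP NcstnKO overlapped with 4.25, 4.17 and 4.02 in GMP WT, and 2 and 3 of these arrays were at or below background. Groups that do not overlap were found for 2 of the 16 probe sets, Ccr2 1421187_at and Fcgr1 1417876_at, beside 27.2% of all probe sets.

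Fn1 on 1426642_at read 7.29, 7.69 and 6.73 in GMP NcstnKO, against 7.48, 8.23 and 8.06 in GMP WT. The groups overlapped, and the log2 fold change was -0.68 (SE 0.29, adjusted p = 0.234). On the dimmer 1437218_at it was 0.41 (SE 0.35), the opposite sign, with all GMP WT arrays at or below background. Cx3cr1 on 1450020_at read 8.32, 7.74 and 7.37 in GMP NcstnKO, against 8.04, 8.72 and 8.77 in GMP WT, a difference of -0.70 (95% interval -1.42 to 0.03, adjusted p = 0.269). On 1450019_at, 5.36, 4.99 and 5.13 in GMP NcstnKO and 5.09, 5.16 and 5.54 in GMP WT differed by -0.11 (SE 0.17).

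F13a1, Ms4a6c and Ly86, which were higher in GMP than in LSK, had small differences between the 2 GMP groups. F13a1 read 12.66, 12.77 and 12.70 in GMP NcstnKO, against 12.66, 12.81 and 12.79 in GMP WT, a log2 fold change of -0.04 (95% interval -0.39 to 0.30, not corrected for the number of probe sets). Ms4a6c on 1450234_at read 12.25, 12.08 and 12.01 in GMP NcstnKO, against 11.78, 12.08 and 12.07 in GMP WT, a difference of 0.14 (95% interval -0.17 to 0.45). Ly86 read 11.57, 11.61 and 11.11 in GMP NcstnKO and differed by -0.13 (95% interval -0.61 to 0.36). A change of 2-fold, 1 on the log2 scale, lies outside all 3 of these intervals. It lies inside those of Ccr2 on 1421187_at, 0.20 to 1.13, and on 1460067_at, -0.12 to 1.29. The same holds for Fcgr1 on 1417876_at, 0.28 to 1.91, and Fn1 on 1437218_at, -0.395 to 1.21. A fall of that size lies inside those of Cx3cr1 on 1450020_at and Fn1 on 1426642_at, the latter -1.34 to -0.03.

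Lgals3 read 11.01, 10.69 and 10.45 in GMP NcstnKO, against 9.93, 10.60 and 10.59 in GMP WT, where replicate 1 was the low array, and the difference was 0.35 (95% interval -0.24 to 0.93). Mpeg1 read 11.52, 11.66 and 11.21 in GMP NcstnKO and differed by 0.15 (95% interval -0.39 to 0.69). Ms4a6c on 1457725_at ranged from 6.54 to 7.71 in GMP NcstnKO and differed by -0.05 (SE 0.30).

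**Figure D4:**
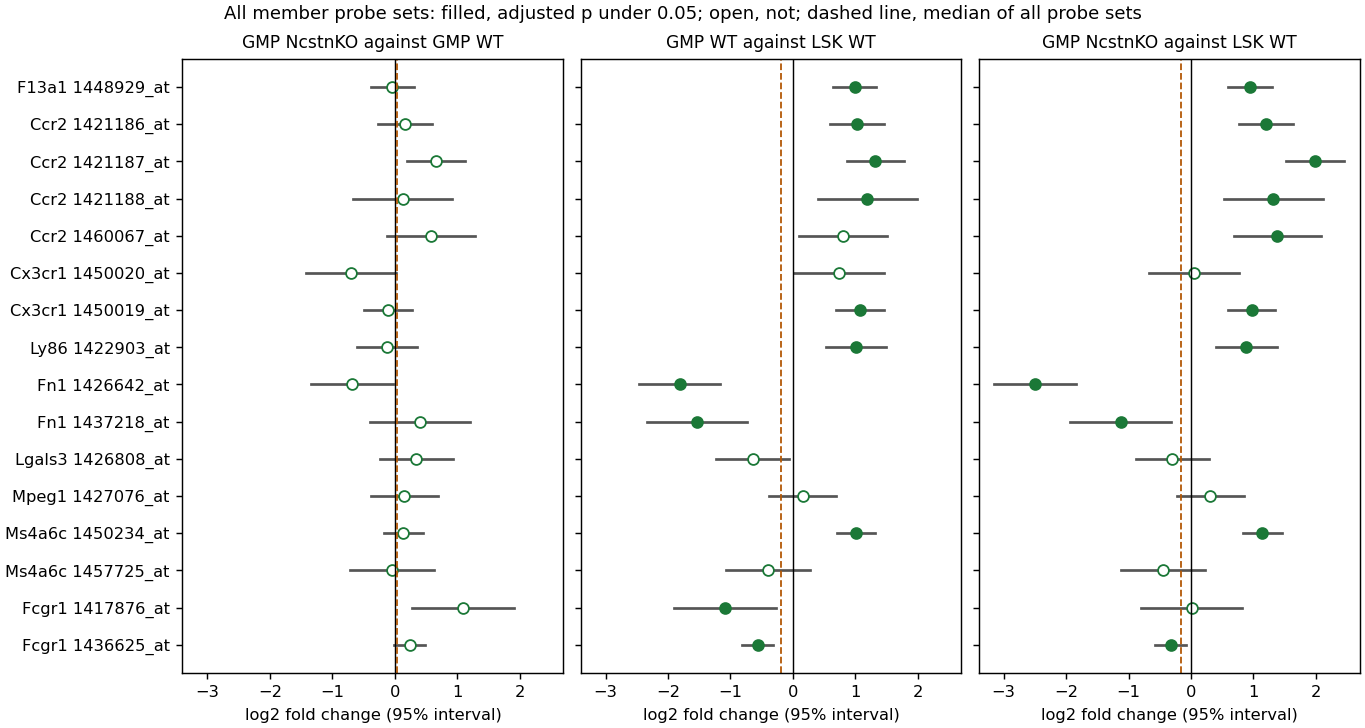
Log2 fold change (x axis) with its uncorrected 95% interval for the 16 probe sets in GMP NcstnKO against GMP WT (left), GMP WT against LSK WT (middle) and GMP NcstnKO against LSK WT (right). Points are filled where the adjusted p was under 0.05, which is 0, 11 and 11 of 16, and the dashed line is the median of all probe sets.

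Markers of other cells were read beside these differences, where 0.604% of all probe sets were higher and 1.15% lower in GMP NcstnKO. None of 8 late neutrophil genes was called, but all 8 had a positive log2 fold change in GMP NcstnKO, with a summed intensity of 46492 to 52727 in GMP NcstnKO and 32875 to 43276 in GMP WT. Of 10 resident macrophage genes 2 were lower in GMP NcstnKO and 7 had a negative log2 fold change, with a median of -0.75, beside 0.04 over all probe sets. Their sums were 3142 to 5402 in GMP NcstnKO and 3108 to 4794 in GMP WT, and Cd5l was at background in both. A sum gives most weight to the brightest genes of its list. Of 8 dendritic cell genes none was called, and the sums were 7224 to 12282 in GMP NcstnKO and 4885 to 10745 in GMP WT. Of 5 erythroid genes 4 were lower, with sums of 4634 to 6971 in GMP NcstnKO and 11247 to 20081 in GMP WT. Their part in the differences of Ccr2, Fcgr1 and Fn1 was not tested.

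GMP NcstnKO were also set against LSK WT, with the same LSK WT arrays as above. In that comparison 8 of the 16 probe sets were higher and 3 lower, where 11.4% of all probe sets were higher and 32.1% lower. All 4 Ccr2 probe sets rose, by 1.20 on 1421186_at, 1.98 on 1421187_at, 1.32 on 1421188_at and 1.38 on 1460067_at on the log2 scale. On 1421187_at Ccr2 was 3.96-fold higher in GMP NcstnKO (adjusted p = 0.000166). Ms4a6c on 1450234_at rose by 1.15 (SE 0.14), F13a1 by 0.95 (SE 0.15) and Ly86 by 0.89 (SE 0.21). Cx3cr1 on 1450019_at was called as well (adjusted p = 0.002). On the deposited scale it was at least 1.67-fold higher in GMP NcstnKO, with 2 of 3 LSK WT arrays at or below background.

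Fn1 was again the gene that fell most. On 1426642_at it was 5.65-fold lower in GMP NcstnKO than in LSK WT (log2 fold change -2.50, SE 0.29, adjusted p = 0.000286). On 1437218_at 1 of 3 GMP NcstnKO arrays was at or below background. There Fn1 was at least 1.68-fold lower on the deposited scale (fitted log2 fold change -1.13, adjusted p = 0.0305). The second of these calls was lost under both other scalings, at -0.84 and -0.75. Fcgr1 on 1436625_at was at least 1.18-fold lower on the deposited scale, with 2 of 3 GMP NcstnKO arrays at or below background. The fitted log2 fold change was -0.33 (adjusted p = 0.0415), and it turned to 0.06 with 75th percentile centring. On 1417876_at Fcgr1 differed by 0.01 (SE 0.36). Cx3cr1 on 1450020_at, at 7.81 ± 0.48 in GMP NcstnKO and 7.76 ± 0.46 in LSK WT (SD, n = 3 each), differed by 0.05 (SE 0.32). Lgals3, at -0.30 (SE 0.25), and Mpeg1, at 0.31 (SE 0.24), did not pass the test.

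The order of the 3 groups was therefore not the same for all members on their brightest probe sets. For Ccr2 and Ms4a6c the means ran from GMP NcstnKO through GMP WT to LSK WT, and for F13a1 and Ly86 GMP WT came first, but the 2 GMP groups did not differ beyond the test in any of the 4. For Fn1 LSK WT came first, then GMP WT, then GMP NcstnKO, and only the gap to LSK WT passed. For Fcgr1 GMP NcstnKO and LSK WT were level and GMP WT lay 1.09 below LSK WT. For Lgals3, Mpeg1 and Cx3cr1 no neighbours in the order differed by the test.

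A wider list of monocyte genes gave a mixed picture between GMP and LSK. Of its 26 genes, 22 were measured. In GMP WT against LSK WT 6 were higher and 6 lower, where 6.04% of all probe sets were higher and 28.8% lower. The median log2 fold change was -0.11, beside -0.20 over all probe sets. The split was 8 and 4 with quantile normalization, 10 and 3 with centring, 3 and 3 with labelled sex as a covariate, and 0 and 2 without the 4 arrays of discordant sex transcripts. Without LSK WT replicate 1 or without GMP WT replicate 3, 3 were higher, in place of 6. Csf1r, the receptor for the growth factor M-CSF, was 1.11 higher on the log2 scale in GMP WT (adjusted p = 0.0242). Ms4a6d, another MS4A protein, was 1.06 higher. Fcgr3, an Fc receptor that the antibody of the GMP gate binds, was 1.11 higher. The gate takes cells by surface FcgammaRII/III, and its part in this RNA difference was not tested. Nr4a1, a nuclear receptor of patrolling monocytes that is also an early response gene, was lower, with a log2 fold change of -2.99 (SE 0.87, adjusted p = 0.028), and its SD was 1.33 in GMP WT and 1.44 in LSK WT. S100a4, a calcium-binding protein, was lower, with a log2 fold change of -1.45, and Itgam, the integrin CD11b, with -1.13. Itgam lost its call with quantile normalization (adjusted p = 0.1).

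Between GMP NcstnKO and GMP WT 0 of the 22 were called, where 0.604% of all probe sets were higher and 1.15% lower. Leaving out GMP NcstnKO replicate 1 gave 1 call, a higher one, of Ms4a6d. In GMP NcstnKO against LSK WT 5 were higher and 6 lower, where 11.4% of all probe sets were higher and 32.1% lower. The split was 7 and 1 with quantile normalization and 9 and 0 with centring, and fewer were called without the 4 arrays. Leaving out GMP NcstnKO replicate 3 gave 5 and 0, and leaving out its replicate 2 gave 4 and 2. Ms4a6d was 2.14 higher in GMP NcstnKO (SE 0.28, adjusted p = 0.000496), Fcgr3 1.28 and Ms4a6b 1.11 higher. Nr4a1 was lower, with a log2 fold change of -2.62, S100a4 with -0.83, and Itgam, at a mean of 5.01 log2 intensity in GMP NcstnKO, was lower as well. Nr4a1, S100a4 and Itgam each lost the call under both other scalings, at adjusted p of 0.0514 to 0.139.

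Of 13 ligands, receptors and binding partners of the members, all measured, 5 were lower and 0 higher in GMP WT against LSK WT, where 28.8% of all probe sets were lower and 6.04% higher. The median log2 fold change of the 13 was -0.22, beside -0.20 over all probe sets. The split was 0 higher and 2 lower with quantile normalization and 3 and 3 with centring. Lgals3bp, a secreted ligand of galectin-3, was lower, with a log2 fold change of -1.34 (SE 0.11, adjusted p = 0.000112), and Cd180, the partner of Ly86, with -1.02 (SE 0.25, adjusted p = 0.0151), while Ly86 itself was higher. Cd180 lost its call under both other scalings, at -0.46 and -0.67. Itgb3, an integrin subunit that pairs in receptors for fibronectin, was lower, with a log2 fold change of -0.95. Cx3cl1, the ligand of Cx3cr1, was lower, with a log2 fold change of -0.91, and averaged 4.96 log2 intensity in GMP WT, near background. Itgb3 and Cx3cl1 lost their calls with quantile normalization (adjusted p = 0.0572 and 0.0688) and kept them with centring. Itga4, the alpha subunit of the fibronectin receptor VLA-4, was lower, with a log2 fold change of -0.33, and this turned to 0.02 with centring. Ccl7 and Ccl12, both ligands of Ccr2, were at background in all 3 groups.

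Itga4 was the 1 partner of 13 called between the GMP groups, where 0.604% of all probe sets were higher and 1.15% lower. It averaged 11.43 ± 0.09 log2 intensity in GMP NcstnKO and 12.05 ± 0.12 in GMP WT (SD, n = 3 each), with a log2 fold change of -0.62 (SE 0.09, adjusted p = 0.0328). Its call was lost without any 1 of the 6 arrays, at adjusted p of 0.0508 to 0.139, and with the replicate number as a block, at 0.0641. It was lost with only the 2 GMP groups, at 0.0806, and with labelled sex as a covariate, at 0.117. Transcript sex (log2 fold change -0.55, adjusted p = 0.14) and the Actb ratio (log2 fold change -0.47, adjusted p = 0.488) as covariates took it away too. Those fits called only 0 to 177 of all 45037 probe sets, so most other calls were lost there too. In GMP NcstnKO against LSK WT 1 partner was higher and 6 lower, where 11.4% of all probe sets were higher and 32.1% lower. The split was 1 and 4 with quantile normalization, 4 and 6 with centring, and 0 and 3 without the 4 arrays. Ccl2, the main ligand of Ccr2, was 1.04 higher (SE 0.29, adjusted p = 0.0186). That call was lost without GMP NcstnKO replicate 2 and without its replicate 3. Itgb3 was lower, with a log2 fold change of -1.66, Lgals3bp with -1.52, Cd180 with -1.32, Itga4 with -0.94 and Cx3cl1 with -0.83. Cd180 and Cx3cl1 lost their calls with quantile normalization (adjusted p = 0.0533 and 0.0853) and kept them with centring.

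Markers of other cells were also read between GMP WT and LSK WT, where 28.8% of all probe sets were lower and 6.04% higher. Sums are again on the deposited scale, which these groups do not share. All 8 late neutrophil genes were lower in GMP WT, with a summed intensity of 32875 to 43276 in GMP WT and 66458 to 87185 in LSK WT. With quantile normalization 8 were lower and with centring 6. Of the resident macrophage genes 3 of 10 were lower and 0 higher, with sums of 3108 to 4794 in GMP WT and 3538 to 4649 in LSK WT. Of the dendritic cell genes 2 of 8 were lower and of the B cell genes 5 of 6, with 0 higher in either list. Of 5 T and NK cell genes 1 was higher and 3 lower, and of 5 erythroid genes 2 were lower. Under both other scalings the lower calls were 1 resident macrophage, 1 dendritic cell, 3 B cell, 2 T and NK cell and 1 erythroid gene. Of 6 mast cell, basophil and eosinophil genes 5 were higher under all 3 scalings, with sums of 33928 to 41216 in GMP WT and 10005 to 15270 in LSK WT. In GMP NcstnKO their sums were 27079 to 33990, and 0 of 6 were called against GMP WT. The part of these cells in the differences of F13a1, Ccr2, Fn1 and the other members was not tested.

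Among themselves, the brightest probe sets of F13a1, Ccr2 and Ms4a6c followed each other most closely over the 9 arrays, with Pearson's r of 0.98 for F13a1 and Ccr2, 0.97 for F13a1 and Ms4a6c and 0.96 for Ccr2 and Ms4a6c. F13a1 and Ly86 had 0.92, F13a1 and Cx3cr1 0.48 and F13a1 and Fn1 -0.80. These values are descriptions, since all arrays share 3 groups and the difference between GMP and LSK sets much of each r.

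For each member the 2 genes with the most similar course were sought among 2980 genes whose group means spanned at least 1 on the log2 scale. Beside F13a1 stood Mcpt8, a basophil protease, with r of 0.995, and Ap3s1, a subunit of the AP-3 adaptor, with 0.991. Beside Ccr2 stood Slpi, a secreted protease inhibitor, with 0.991 and Csrp3 with 0.990. Ly86 was nearest to Tifab with 0.987 and Cdh1, E-cadherin, with 0.978. Ms4a6c was nearest to Ube2w with 0.986 and Pik3r6 with 0.984. All of these had higher means in both GMP groups than in LSK WT. Fn1 was nearest to Sesn2 with 0.988 and Irf9, an interferon response factor, with 0.987. Cx3cr1 was nearest to Csf1r with 0.890 and Stxbp6 with 0.882, and Lgals3 to Marchf1 with 0.928 and Vpreb1, of the surrogate light chain of B cell precursors, with 0.912. Fcgr1 was nearest to Fas and Ifitm6 with 0.935 each. Mpeg1 had the loosest neighbours, Ifi209 with 0.812 and Tmem156 with 0.751.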

How the data were processed

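RNA of sorted cells (5 ng, amplified and labelled with biotin, per the labels' protocols) was hybridized to 9 Affymetrix arrays. The authors deposited linear intensities for 45101 probe sets, made with RMA (background subtraction, normalization and probe summary) per the submitters' processing notes, which give no version, and joint normalization of the arrays is not given in the sources used here. Log2 of the deposited intensity was taken. Of the probe sets, 34945 had 1 gene symbol in GEO's platform annotation, 932 several, 9160 none and 64 were controls.

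All 45037 probe sets without controls entered a 2-sided limma fit of 3 group means (version 3.58.1, R 4.3.3, empirical Bayes, 6 residual degrees of freedom), checked on simulated data. Calls needed a p under 0.05 after Benjamini-Hochberg adjustment over all probe sets. The number of arrays limits the precision. Fold bounds took, per array, the higher of the background limit and the value of the dim probe set, also where only some arrays of a group were at or below the limit. They hold on the deposited scale only, and the adjusted p beside a bound belongs to the fitted values.

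The genes, the lists and the tests were chosen with earlier results of these data known. Lists were read on the brightest probe set of each gene, and list genes without a probe set of their own were not analysed here. All members are named, with up to 6 called genes of largest change from the wider and the partner list in each comparison, Ccl7 and Ccl12 after their values were seen, and the 2 nearest genes of each member. Same-numbered LSK WT and GMP WT arrays deviated together from their group means (r of 0.247, 0.247 and 0.296 over all probe sets), as paired arrays would. This comes from the data and not the labels. The main fit had no replicate block, so its SEs and adjusted p do not take such pairing into account. A block was run only as an alternative. Other same-numbered pairs had r of at most 0.0447.

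Alternatives were quantile normalization, centring on the 75th percentile, a pseudocount of 16, leaving out the dimmest 40%, the brightest probe set or the mean of the probe sets per gene, only the groups compared, labelled sex, transcript sex or the Actb ratio as a covariate, a replicate block, and arrays left out. They were run on the lists only where probe sets were the unit.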

Additional observations from a re-analysis of the deposited data

How the results depend on the processing

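In GMP NcstnKO against GMP WT 0 of 16 probe sets were called under every alternative run, while the call count over all probe sets fell to between 0 and 177 without 1 GMP array, without the LSK WT group, with a covariate or with the block, so those fits called little of anything. With the replicate number as a block the counts were 0, 12 in GMP WT against LSK WT (7 higher, 5 lower, Lgals3 added) and 10 in GMP NcstnKO against LSK WT (8 and 2), and apart from Lgals3 and the Fcgr1 probe set 1436625_at in GMP NcstnKO against LSK WT (adjusted p = 0.072) the block changed no member's call. Without 1 array the counts were 9 to 11 in GMP WT against LSK WT and 8 to 11 in GMP NcstnKO against LSK WT. Read as 1 value per gene, 6 of 9 genes were called in GMP WT against LSK WT with the brightest probe set and 6 with the mean of the probe sets (4 higher and 2 lower in both), and in GMP NcstnKO against LSK WT 5 (4 and 1) and 4 (3 and 1). These counts are over 9 genes in place of 16 probe sets. Without the 4 arrays whose sex transcripts differ from their labels, 1 array was left in each GMP group. Fewer member probe sets were then called in these 2 comparisons, and fewer of all probe sets too. Fcgr1 on 1436625_at in GMP NcstnKO against LSK WT turned to 0.055 (adjusted p = 0.695) with 75th percentile centring, and the cause was not tested. Over the single probe sets, alternatives took away a call 30 times in GMP WT against LSK WT and 26 times in GMP NcstnKO against LSK WT, and added one 9 and 3 times. A difference that was called neither as deposited nor under the alternative changed sign 37 times, 22 of them in GMP NcstnKO against GMP WT, 3 in GMP WT against LSK WT and 12 in GMP NcstnKO against LSK WT, and none of these was larger than 0.70 as deposited. With 3 arrays a group and dim probe sets near background for Fcgr1, Fn1 and Cx3cr1, small differences were not detectable.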
